A study of Homo sapiens with 8 samples.

Results

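The miR-29 family was followed through small RNA libraries of H1299 cells, a human non-small cell lung carcinoma line derived from a lymph node metastasis that makes no p53. Its members are the 3 guide strands hsa-miR-29a-3p, hsa-miR-29b-3p and hsa-miR-29c-3p and the 4 passenger strands hsa-miR-29a-5p, hsa-miR-29b-1-5p, hsa-miR-29b-2-5p and hsa-miR-29c-5p, which are 7 of the 945 miRNA features counted in the series. They were taken by name, and the family was chosen by measured values: miR-29b-3p was already known to be higher in the untreated R273H libraries and lower in EV libraries after etoposide. Both of these comparisons are therefore given as descriptions, without a test. H1299/EV cells carried an empty vector and came from another laboratory, and H1299/mutant p53R273H cells stably expressed the mutant from a CMV promoter after selection of G418-resistant colonies. Whether either line was a single clone is not given in the sources used here. Each line was sequenced untreated and after 24 h with etoposide, a topoisomerase II poison that breaks DNA, so the 4 groups had 2 libraries each. The dose is written as 10 µM in one protocol text and as 10 mM in a second. The line and its laboratory of origin cannot be told apart, and replicates are called biological in the study, while the labels do not say whether they were separate cultures. The p-values measure only the spread between these libraries.

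A miRNA hairpin gives 2 arms. The guide strand is loaded onto an Argonaute protein and pairs with target mRNAs through its seed, bases 2 to 8, while most of the passenger strand is degraded. Known targets of the miR-29 guides include collagen and other matrix genes, the DNA methyltransferases DNMT3A and DNMT3B and the survival protein MCL1, and the family is often low in lung cancer. miR-29 is also tied to p53, since its guides lower negative regulators of p53, and one of its host transcripts, LINC-PINT, is named for its induction by p53.

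The mature sequences are shown because the 3 guides share one seed and differ by a few bases, whereas each passenger has a seed of its own. They were taken from RefSeq (GRCh38.p14), where all 7 members were found, and capitals mark bases 2 to 8.
hsa-miR-29a-3p: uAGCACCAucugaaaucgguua
hsa-miR-29b-3p: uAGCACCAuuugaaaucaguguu
hsa-miR-29c-3p: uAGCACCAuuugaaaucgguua
hsa-miR-29a-5p: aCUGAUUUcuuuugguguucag
hsa-miR-29b-1-5p: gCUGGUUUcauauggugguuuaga
hsa-miR-29b-2-5p: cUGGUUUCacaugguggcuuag
hsa-miR-29c-5p: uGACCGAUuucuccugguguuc

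Of the 2370 mature miRNAs in the RefSeq table, the 3 guides alone had the seed AGCACCA. Counted from 1 at the 5′ end, with the base of the first-named guide written first, miR-29a-3p and miR-29c-3p differed by 1 substitution of 22 bases, C10U. miR-29c-3p and miR-29b-3p differed by G18A, U21G and A22U, and miR-29b-3p is 1 base longer. Its last 6 bases, AGUGUU, are known as a signal for import into the nucleus. Only 2 of the 2370 mature sequences ended in these letters, and miR-29b-3p was the only one of them counted in the series. Since a single base separates miR-29a-3p from miR-29c-3p, reads with an error there can be counted for the wrong guide.

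The 4 hairpins lie in 2 pairs and show why only the passengers tell the miR-29b genes apart. Capitals mark the passenger and the guide, in this order, and the sequences are from the same RefSeq table.
MIR29B1: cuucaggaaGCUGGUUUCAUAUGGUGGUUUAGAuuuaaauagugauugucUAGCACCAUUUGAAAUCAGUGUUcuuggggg
MIR29A: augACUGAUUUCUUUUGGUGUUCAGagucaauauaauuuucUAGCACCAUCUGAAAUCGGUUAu
MIR29B2: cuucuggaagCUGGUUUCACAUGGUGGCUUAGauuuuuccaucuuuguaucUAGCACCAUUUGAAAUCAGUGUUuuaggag
MIR29C: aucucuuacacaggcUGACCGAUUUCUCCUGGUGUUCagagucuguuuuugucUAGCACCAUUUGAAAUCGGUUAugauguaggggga

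Each hairpin matched GRCh37 once on its chromosome. MIR29B1 (chr7:130562218-130562298) and MIR29A (chr7:130561506-130561569) lie 648 bases apart on the minus strand, where both overlap exons annotated for the lncRNA LINC-PINT and lie opposite the lncRNA LINC00513. MIR29B2 (chr1:207975788-207975868) and MIR29C (chr1:207975197-207975284) lie 503 bases apart on the minus strand within exons of the lncRNA MIR29B2CHG. MIR29B1 and MIR29B2 give an identical miR-29b-3p, so its reads cannot be assigned to either gene. Their passengers, aligned with an offset of 1 base, differed by U11C and U19C over 22 bases, in positions of miR-29b-1-5p.

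The libraries held 234545 to 579367 reads on annotated features, of which 213007 to 536991 fell on miRNAs. The share of miR-21-5p alone was 30.6% to 44.5% of miRNA reads. Reads on tRNA made up 3.75% to 8.77% of a library in EV and 1.72% to 4.53% in R273H. The p53 mRNA is not measured by small RNA sequencing, so expression of the mutant was not checked here. The study showed the mutant protein in its R273H cells by immunoblot. Epithelial miRNAs of the miR-200 family with miR-205 were all detected but summed to 3.95 to 44.3 reads per 1000000 miRNA reads (RPM), and 3 of 5 blood miRNAs had a read, at a sum of 2.87 to 70.4 RPM. The endothelial miR-126-3p was higher in untreated EV (2306 and 2335 RPM) than in untreated R273H (1104 and 1231 RPM), and its part in the results was not tested. EV etoposide replicate 2 stood apart from the other libraries in miR-29b-3p, with 2452 reads against 7623 to 44915 elsewhere, and the EV fold changes of the guides and the comparison of the treated lines are also given without it.

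miR-29b-3p had the most reads of the family in every library except EV etoposide replicate 2, where miR-29a-3p had more. Levels were set side by side across the 4 groups as RPM, from reads recovered from the deposited values, because each comparison had been normalized in a table of its own. In untreated EV the 2 libraries had 54427 and 45177 RPM of miR-29b-3p, and after etoposide they had 35788 and 6769 RPM. Untreated R273H had 98031 and 110432 RPM, and R273H after etoposide had 82529 and 70651 RPM. Group means were 49802 ± 6541 and 21278 ± 20519 in EV, and 104231 ± 8769 and 76590 ± 8399 in R273H (SD, n = 2). The order was therefore untreated R273H, R273H with etoposide, untreated EV and EV with etoposide, and on this scale no neighbouring groups overlapped. On 1 set of median-of-ratios size factors over the 8 libraries, untreated EV and R273H with etoposide overlapped, with means of 21417 and 21393 normalized counts. Among all miRNAs of a library, miR-29b-3p had rank 2 in each R273H library, ranks 3 and 5 in untreated EV, and ranks 8 and 23 in EV after etoposide.

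miR-29a-3p had 14319 and 16732 RPM in untreated EV and 13563 and 15468 RPM in EV after etoposide. In R273H it had 12379 and 17562 RPM untreated and 16111 and 17534 RPM after etoposide. Every pair of groups that were neighbours in the order of means overlapped. Both treated R273H libraries lay above both treated EV libraries in RPM, but not on the common size factors. The guide miR-29c-3p was rare. It had 132 and 88.1 RPM in untreated EV, 146 and 55.2 RPM in EV after etoposide, 212 and 238 RPM in untreated R273H and 227 and 335 RPM in R273H after etoposide. All 4 R273H libraries lay above all 4 EV libraries in RPM, while the treated and untreated libraries of each line overlapped.

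**Figure D1:**
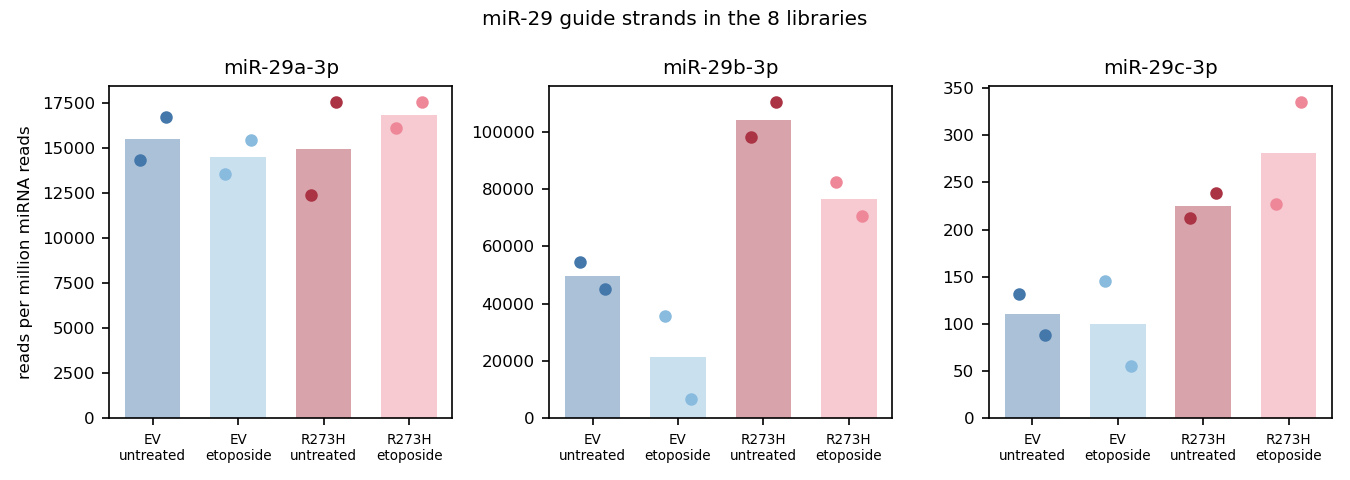
Levels of the 3 miR-29 guide strands in RPM, with a linear axis of its own for each strand. Points are the 2 libraries of each group and bars their mean. miR-29b-3p spans 6769 to 110432, while miR-29a-3p stays between 12379 and 17562. For miR-29a-3p, groups that are neighbours in the order of means overlap, but treated R273H lies above treated EV.

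The make-up of the guide pool is a ratio within a library and does not depend on how libraries are scaled. miR-29b-3p made up 79.0% (exact Clopper-Pearson 95% interval 78.6 to 79.4) and 72.9% (72.2 to 73.6) of the guide reads in untreated EV. After etoposide these shares were 72.3% (71.4 to 73.2) and 30.4% (29.4 to 31.4). In R273H they were 88.6% (88.3 to 88.9) and 86.1% (85.8 to 86.4) untreated, and 83.5% (83.1 to 83.8) and 79.8% (79.4 to 80.3) after etoposide. Intervals and limits here cover counting error only, and replicates differed by more than their intervals. Both untreated R273H libraries lay above both untreated EV libraries, and both treated R273H libraries lay below both untreated ones. For each read of miR-29a-3p there were 7.92 and 6.29 reads of miR-29b-3p in untreated R273H and 5.12 and 4.03 after etoposide. Between means of 7.10 ± 1.15 and 4.58 ± 0.77 (SD, n = 2) the two-sided exact permutation test gave p = 0.333, the smallest value that 2 libraries against 2 allow. In EV the same ratio was 3.80 and 2.70 untreated and 2.64 and 0.438 after etoposide. The treated EV library nearest to the untreated ones lay below the lower of them by 0.0614 reads per read of miR-29a-3p, so the separation in EV is small without replicate 2. Reads are not molar amounts, since strands can differ in how well they are ligated and sequenced.

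**Figure D2:**
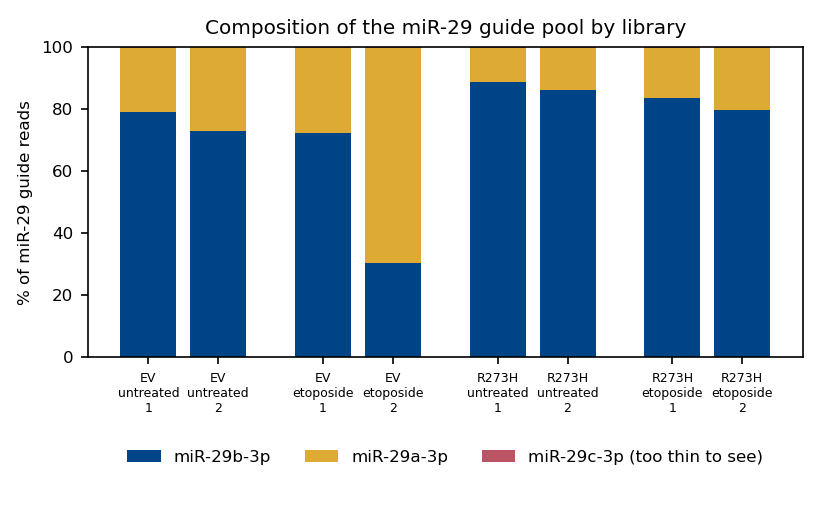
Share of each guide in the miR-29 guide reads of a library, in percent, with 1 stacked bar for each of the 8 libraries. miR-29b-3p takes 72.3% to 88.6% in 7 libraries and 30.4% in EV etoposide replicate 2, and miR-29c-3p, at 0.142% to 0.379%, is too thin to be seen.

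Passenger strands gave 295 reads in all 8 libraries together, against 8075 to 52155 guide reads in a single library. For miR-29b there were 2657 and 2822 guide reads per passenger read in untreated EV and 1582 and 1123 in untreated R273H. After etoposide the numbers were 847 and 175 in EV and 2323 and 948 in R273H. For miR-29a the guide outnumbered its passenger 241 to 1121 times. Among the passengers of miR-29b, 135 of 150 reads came from MIR29B1 (90%). By group, miR-29b-1-5p gave 15 of 15 reads in untreated EV (100%, exact interval 78.2 to 100), 23 of 23 in EV after etoposide (100%, 85.2 to 100), 59 of 68 in untreated R273H (86.8%, 76.4 to 93.8) and 38 of 44 in R273H after etoposide (86.4%, 72.6 to 94.8). The intervals of the 4 groups overlapped. The chromosome 7 pair together gave 93.5%, 88.9%, 89.0% and 86.0% of passenger reads in the same order of groups.

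miR-29b-2-5p was found in R273H libraries only, with 7 and 2 reads untreated and 4 and 2 reads after etoposide, while the 4 EV libraries had 0 reads. With the limit of a count of 0 set at 3 reads, this allows up to 5.59 and 12.01 RPM in untreated EV and up to 14.1 and 8.28 RPM in EV after etoposide, where the exact intervals of the passenger plot reach 6.87 to 17.3 RPM. The R273H levels were 15.5 and 4.92 RPM untreated and 7.89 and 5.73 RPM after etoposide. One R273H library thus lay above every limit set at 3 reads, and the other 3 lay below the highest of them. The difference between the lines was not tested for this strand. miR-29c-5p had 0 to 4 reads in each library, and no order of the groups could be read from it.

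**Figure D3:**
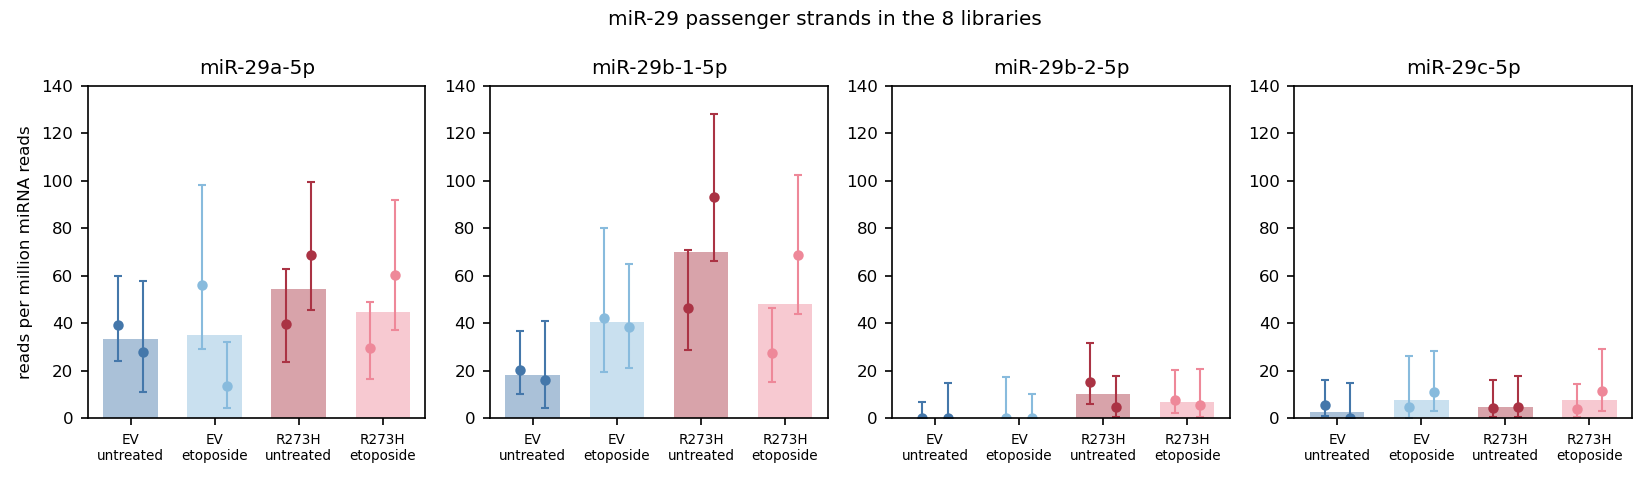
Levels of the 4 miR-29 passenger strands in RPM, on the same axis from 0. Points are single libraries with exact 95% Clopper-Pearson intervals for counting error, and bars are group means. miR-29b-1-5p reaches 93.4 in untreated R273H, miR-29b-2-5p stays at 0 in the EV libraries, and most intervals overlap.

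Untreated R273H and EV cells were compared to ask how the family differs with mutant p53. In the deposited normalized counts, miR-29b-3p had 20234 and 17987 in EV and 45447 and 39920 in R273H. Its log2 fold change was 1.16 (standard error 0.24). For miR-29c-3p the counts were 49.1 and 35.1 in EV against 98.5 and 86.2 in R273H, a log2 fold change of 1.13 (standard error 0.39). The guide miR-29a-3p had 5323 and 6662 against 5739 and 6349, and its log2 fold change of 0.02 (standard error 0.26) came from overlapping libraries. The guide of MIR29A thus overlapped between the lines, while miR-29b-3p, which the neighbouring MIR29B1 also encodes, was higher in both R273H libraries.

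The passenger miR-29b-1-5p had 7.62 and 6.38 normalized counts in EV and 21.6 and 33.8 in R273H, a log2 fold change of 1.81 (standard error 0.50) that rests on 4 to 38 reads per library. miR-29a-5p, from the neighbouring hairpin, had 14.5 and 11.2 against 18.5 and 24.9, and a log2 fold change of 0.71 (standard error 0.49). Of the 5 members whose normalized counts averaged 3 or more, 4 were higher in R273H without overlap, beside 34.9% of the 304 miRNAs tested, and 3 of them were at least 2-fold higher, beside 18.8%. No member was lower without overlap, beside 26.6% of all miRNAs and 11.5% at 2-fold or more. The median log2 fold change was 1.13 over the 5 members and 0.10 over all miRNAs. These counts are part of what led to the family and carry no evidence of their own. The number at 2-fold or more was 1 with edgeR and with equal upper quartiles, where miR-29b-3p stood at 0.97 and 0.81. Upper quartiles also moved the median of all miRNAs by -0.34, and relative to that median miR-29b-3p was 1.06 higher on the deposited, the RPM and the upper-quartile scale alike. Values relative to the median must be nearly alike on such scales, since rescaling shifts all log2 values of a library together.

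After etoposide the EV libraries showed miR-29b-3p lower and the other arms less clearly so. miR-29b-3p had 18850 and 17084 normalized counts untreated and 7269 and 2413 after etoposide, a log2 fold change of -2.10 (standard error 0.54). The treated libraries lay far apart, and without EV etoposide replicate 2 the log2 fold change was -1.30. miR-29c-3p had 45.8 and 33.3 against 29.6 and 19.7, and a log2 fold change of -0.67 (standard error 0.48). miR-29a-3p (4959 and 6327 against 2755 and 5513) and miR-29a-5p (13.5 and 10.6 against 11.4 and 4.92) overlapped between treated and untreated libraries, with log2 fold changes of -0.52 and -0.60. For miR-29a-3p the overlap came from replicate 2: without it the log2 fold change was -1.02, and without replicate 1 it was -0.02. Without replicate 2, miR-29c-3p stood at -0.39 and miR-29a-5p at -0.06.

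Of the 5 members tested in EV, 2 were lower without overlap, beside 15.5% of 296 miRNAs, and 1 of them was at least 2-fold lower, beside 4.73%. The passenger miR-29b-1-5p went the other way, with 7.09 and 6.05 normalized counts untreated and 8.58 and 13.8 after etoposide, a log2 fold change of 0.66 (standard error 0.67) from 4 to 14 reads a library. It was the 1 member that was higher without overlap, beside 18.6% of miRNAs, and it did not reach 2-fold, which 6.08% did. In RPM the same passenger was 1.03 higher on the log2 scale, as the median of all miRNAs moved by 0.41 between these scales. On the RPM scale miR-29c-3p overlapped, so miR-29b-3p alone was lower without overlap, and the share of all miRNAs was not counted. There miR-29a-3p, miR-29c-3p and miR-29a-5p stood at -0.10, -0.25 and -0.19. Treated replicate 1 had 13563 RPM of miR-29a-3p, against 14319 and 16732 untreated. Relative to the median, miR-29b-3p was -2.06 on the deposited and -2.05 on the RPM scale. Such likeness is built into the measure, as rescaling shifts all log2 values of a library together.

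Etoposide in R273H was the comparison whose treated libraries had not led to the family, and it was tested with limma. Its untreated libraries are those in which miR-29b-3p was already known to be high. A choice made on a high untreated level favours a lower value after treatment, so the p-values of miR-29b-3p, and of arms that were also high there, are not independent of that choice. The 5 members that averaged 3 or more normalized counts in both groups all had lower means after etoposide. miR-29b-3p fell from 58891 and 53038 to 34475 and 18299 normalized counts. Its log2 fold change was -1.15 (standard error 0.50, unadjusted p = 0.0373, adjusted p = 0.495, limma). The passenger of its chromosome 7 gene, miR-29b-1-5p, fell from 27.9 and 44.9 to 11.5 and 17.8, a log2 fold change of -1.25 (standard error 0.38, unadjusted p = 0.00579, adjusted p = 0.389, limma). In both strands the treated libraries lay below the untreated ones. For miR-29a-5p the counts were 23.9 and 33.1 against 12.4 and 15.6, and the log2 fold change of -0.97 (standard error 0.36) stayed short of 2-fold (unadjusted p = 0.0183, adjusted p = 0.472, limma).

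The guides miR-29a-3p and miR-29c-3p had smaller differences. miR-29a-3p had 7436 and 8435 normalized counts untreated and 6730 and 4541 treated, a log2 fold change of -0.52 (standard error 0.40, unadjusted p = 0.215, limma). miR-29c-3p had 127.6 and 114.5 against 94.8 and 86.9, a log2 fold change of -0.41 (standard error 0.30, unadjusted p = 0.201, limma). Both were separated between treated and untreated libraries without passing the test. miR-29b-2-5p, at 9.31 and 2.36 against 3.30 and 1.48, averaged under 3 after etoposide, passed the filter only through the untreated libraries, and overlapped (log2 fold change -0.85, standard error 0.78, unadjusted p = 0.294, limma), and miR-29c-5p was below the filter. Thus, on the deposited scale, the 5 members over the filter in both groups were lower without overlap, beside 18.8% of the 341 miRNAs. On that scale 0 were higher, beside 20.5%. In RPM only miR-29b-3p was lower without overlap, while the treated and untreated libraries of the others overlapped. The share of all miRNAs was not counted in RPM.

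At an unadjusted p under 0.05 with a fold of at least 2, the criteria of the study, 2 of these 5 were lower, miR-29b-3p and miR-29b-1-5p, beside 3.23% of all miRNAs. The share was 6.16% in either direction and 2.93% for higher miRNAs. Without the fold criterion 3 of 5 were lower, beside 4.99% (9.09% of all miRNAs in either direction), and 2 of 5 were at least 2-fold lower without overlap, beside 4.4% (4.11% for higher). At an adjusted p under 0.05 limma called 0 members and 0 of the 341 miRNAs (0%), against 31 at an unadjusted p under 0.05, while edgeR called 0, DESeq2 1 miRNA and no member. The median log2 fold change was -0.97 over the 5 members and 0.02 over all miRNAs.

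The size of the fall, and for some arms its direction, depended on the scaling. In RPM, the median of all 341 miRNAs stood at 0.71 in place of 0.02. On that scale miR-29b-3p fell by 0.45 on the log2 scale (adjusted p = 0.0278, limma, in an alternative chosen after seeing the data, beside adjusted p-values up to 0.748 in the others). miR-29a-3p and miR-29c-3p turned to 0.19 and 0.29, and miR-29a-5p and miR-29b-1-5p stood at -0.29 and -0.57. Relative to the median of all miRNAs the values hardly moved. This is so by construction, since rescaling shifts all log2 values of a library nearly alike, and it is not a check. miR-29b-3p was -1.17 on the deposited scale and -1.15 in RPM, miR-29b-1-5p was -1.26 and -1.27, and miR-29a-3p was -0.53 and -0.52. The falls are therefore falls against the median miRNA. Whether the amounts per cell changed was not measured.

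**Figure D4:**
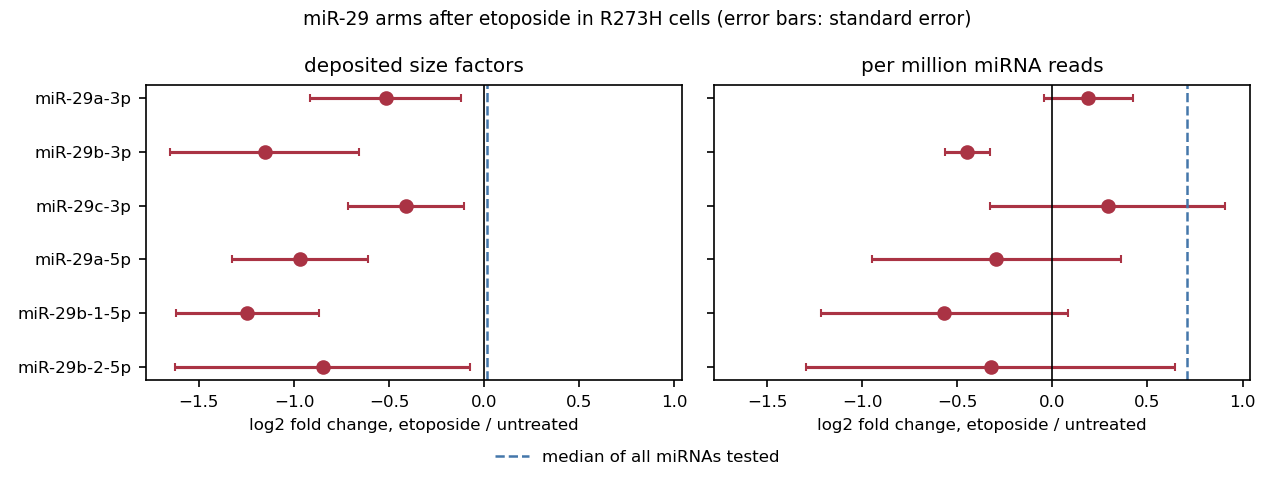
Log2 fold changes of 6 miR-29 arms after etoposide in R273H cells, with deposited size factors on the left and as RPM on the right. Points are the fitted values, bars their standard errors, the solid line is 0 and the dashed line the median of the 341 miRNAs tested, which stands at 0.02 and 0.71. Every arm lies left of the dashed line in both panels, while miR-29a-3p and miR-29c-3p lie right of 0 on the right.

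The call of miR-29b-3p was lost without a filter (unadjusted p = 0.0829, limma). It was also lost with a minimum mean of 10 and with equal upper quartiles (unadjusted p = 0.0689 and 0.177, limma). In RPM both calls were lost, and miR-29b-1-5p and miR-29a-5p had unadjusted p = 0.383 and 0.654 (limma). miR-29a-5p, not called in the main fit, had an unadjusted p = 0.103 in DESeq2. In edgeR it met both criteria (log2 fold change -1.01, unadjusted p = 0.0301). Single libraries mattered as well. In fits that each omitted 1 library, the log2 value of miR-29b-3p in R273H lay between -1.61 and -0.70, and it was under 2-fold only without R273H etoposide replicate 2. miR-29b-1-5p ranged from -1.58 to -0.91 and was under 2-fold without R273H untreated replicate 2 and without R273H etoposide replicate 1. The call of miR-29b-3p was lost without R273H untreated replicate 1 or 2, through the p-value. It was also lost without R273H etoposide replicate 2, through the fold. The call of miR-29b-1-5p was lost without R273H untreated replicate 2 and without R273H etoposide replicate 1. No test of whether the etoposide effect differs between the lines was made.

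In the treated cells, R273H libraries were set against EV libraries as a description, since both treated groups enter the comparisons above. miR-29b-3p was 3.60-fold higher in R273H by group means in RPM and 3.63-fold on the common size factors. Without EV etoposide replicate 2 these ratios were 2.14 and 2.40. For miR-29c-3p the ratios were 2.80 and 2.47, and without that library they were 1.93 and 2.04. Both R273H libraries lay above both EV libraries for these guides on either scale. They are 2 of 5 members at least 2-fold higher without overlap, beside 20.5% of 337 miRNAs in RPM and 14.5% on the common factors. In RPM the count was 1 of 5 without that library, where the share of all miRNAs was not counted. miR-29a-3p differed by 0.21 (log2) in RPM and by -0.07 on the common factors, and by 0.31 and 0.41 without that library, so its direction depended on the scale and on 1 library. miR-29b-1-5p, at 0.11 and -0.16, also changed sign between the scales.

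Other miRNAs with known ties to p53 served as the setting for the etoposide comparison in R273H. Of 14 such miRNAs, 8 passed the filter. At the criteria of the study 1 rose and 0 fell, beside 2.93% and 3.23% of all miRNAs, with a median log2 fold change of 0.28 beside 0.02 over all miRNAs, and none had an adjusted p under 0.05 in limma. The one that rose was miR-194-5p, a miRNA of p53-induced clusters, from 5.32 and 9.45 to 14.8 and 25.2 normalized counts. Its log2 fold change was 1.33 (unadjusted p = 0.0105, adjusted p = 0.449, limma), from low counts. Without the fold criterion, 2 of the 8 had an unadjusted p under 0.05 in limma, beside 9.09% of all miRNAs in either direction. The second was miR-34a-5p, which rose by 0.94 and stayed short of 2-fold (standard error 0.35, unadjusted p = 0.0194, adjusted p = 0.472, limma). The lowest value was that of miR-16-5p, -0.14. In RPM all 8 were above 0, with a median of 0.99, beside a median of 0.71 over all miRNAs, and miR-16-5p turned to 0.57.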

How the data were processed

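The authors sequenced small RNA on an Ion PGM, kept reads of 17 to 35 bases, aligned them with SHRiMP to miRBase and with Novoalign to GRCh37 (hg19), and counted them per feature. The deposited signal in each of 3 tables is a read count divided by a DESeq size factor per library, normalized separately per table. All values were whole multiples of 1 read (tolerance 0.0051), so reads were recovered. The authors' tables of comparisons hold fold changes and p-values and were not used.

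Members and lists were chosen with earlier results of these data known. Named are the 7 arms, the 5 other miRNAs most correlated with miR-29b-3p, and the p53-linked miRNAs with the largest fold each way. Also named is miR-34a-5p, for its unadjusted p under 0.05 in limma. Values from etoposide against untreated in R273H were tested with limma 3.58.1 (R 4.3.3, trended variance) on log2 of the normalized count with a pseudocount of 1, where normalized counts averaged 3 or more, with Benjamini-Hochberg adjustment, so folds of low miRNAs are understated. Groups came from sample titles. Alternatives were other pseudocounts, filters and scalings, limma without trend, edgeR 4.0.16, DESeq2 1.42.0, a replicate block and each library left out. Levels were set in reads per 1000000 miRNA reads (RPM). RPM as a scaling of the fold changes, common size factors, and the treated lines and correlations without EV etoposide replicate 2 were added after seeing the data. Reads of 330 miRNAs, 192 of them changed, were simulated in the design of etoposide in R273H. At p under 0.05, limma recovered 80.2% of the changed ones, edgeR 80.7% and DESeq2 65.6%. They called 3.62%, 3.62% and 2.90% of the unchanged ones. Whether these shares hold for folds of the size seen in the miR-29 arms was not tested. Positions used GENCODE and GRCh37. Library totals were 213007 to 536991 miRNA reads, which leaves passengers with 0 to 38 reads each.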

Additional observations from a re-analysis of the deposited data

Results flagged for a closer look

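miR-29b-1-5p, the passenger strand that marks the MIR29B1 gene, moved in opposite directions after etoposide in the 2 lines. Its log2 fold change was 0.66 in EV, where both treated libraries lay above both untreated ones, and -1.25 in R273H, where both treated libraries lay below. The difference between the lines was not tested. The values rest on 4, 11, 9 and 14 reads in the EV libraries and on 14 to 38 reads in the R273H libraries. In RPM the values were 1.03 and -0.57, and the R273H libraries then overlapped.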

How the results depend on the processing

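Of 183 values of single arms under alternatives, 158 kept their direction and side of the threshold or moved by less than the spread. Of the rest, 12 no longer passed, 1 newly passed, 10 were counted as moved and 2 as reversed. The 10 moved by more than the spread or, where untested and under 2-fold, changed sign. Among them was miR-29a-3p between the untreated lines, whose 0.02 turned to -0.33 with equal upper quartiles, -0.16 with edgeR and -0.07 in RPM. The 2 counted as reversed were miR-29a-3p (0.19) and miR-29c-3p (0.29) after etoposide in R273H, in RPM. In that comparison 21 miRNAs and 2 members met the criteria of the study. A pseudocount of 5 gave 11 miRNAs, no filter 33, a minimum mean of 10 gave 10, DESeq2 gave 10 and RPM 35, all higher. At an adjusted p under 0.05, limma called 2 with a minimum mean of 10, 2 with equal upper quartiles and 2 in RPM, and DESeq2 called 1. The members numbered 3 with edgeR, 1 with no filter, 1 with a minimum mean of 10, 1 with equal upper quartiles and 0 in RPM. With each library left out, 9 to 32 miRNAs and 0 to 2 members met the criteria, and 0 to 9 miRNAs had an adjusted p under 0.05. The 32 came without R273H untreated replicate 1 and the 9 miRNAs meeting the criteria without R273H etoposide replicate 2. The 0 members came without R273H untreated replicate 2, and 1 member was left without either R273H etoposide library. A lone library was assumed to vary like the others. The causes of these moves were not tested.

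Members at least 2-fold apart between the untreated lines, with or without overlap, numbered 3, but 1 with equal upper quartiles and 1 with edgeR. With a library left out they numbered 2 to 3. Members at least 2-fold apart after etoposide in EV numbered 1, but 2 in RPM and 1 to 2 with a library left out, where 2 came without either treated library. The mean level of miR-29b-3p in EV untreated, R273H untreated and R273H etoposide was 84860.4, 176678 and 116754 RPM without miR-21-5p, and 58063, 121204.5 and 57999.8 with 1 set of size factors, here expressed per 1000000 of the mean scaled library and not as normalized counts. Without the 7 arms it was 118469 in R273H untreated. The replicate numbers did not pair the libraries (r = -0.08 between same-numbered libraries in R273H). With a replicate block, 17 miRNAs met the criteria in place of 21, and 0 had an adjusted p under 0.05. The members meeting the criteria still numbered 2, with 3 and 1 in the other comparisons, so only the numbers of members were unchanged. Depth limits the passengers, which had 0 to 38 reads.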

Other observations

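Among 188 miRNAs with a mean of at least 50 RPM, those most like miR-29b-3p over the 8 libraries were, by Pearson's r of log2 values, miR-16-2-3p (0.973), miR-29c-3p (0.850), miR-365a-3p (0.849), miR-7-1-3p (0.835) and miR-18a-5p (0.806). These r values are descriptions over 4 groups of 2 libraries, and they share the scaling of the libraries. Without EV etoposide replicate 2 they were 0.848, 0.688, 0.396, 0.581 and 0.806 in the same order, so those of miR-365a-3p and miR-7-1-3p rest most on that library. miR-16-2-3p, the passenger of MIR16-2, had 317 and 376 RPM in untreated EV and 249 and 60.7 after etoposide. In R273H it had 511 and 607 untreated and 357 and 510 after etoposide. EV etoposide replicate 2 was the lowest library for each of these 5 miRNAs, as it was for miR-29b-3p. The seed-sharing guide miR-29a-3p, whose gene neighbours MIR29B1, had an r of 0.055 and ranked 89th of the 188.

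Passenger reads per 10000 reads of the whole family were 9.45 and 7.10 in untreated EV and 20.8 and 28.4 in EV after etoposide. In R273H they were 9.59 and 13.4 untreated and 6.98 and 16.5 after etoposide. The treated EV libraries lay above the other 6 libraries, on 22 and 23 passenger reads. The guides, nearly all of the denominator, made up 6.89% and 6.20% of miRNA reads in untreated EV. After etoposide they made up 4.95% and 2.23%. Whether the passengers themselves rose was not tested.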
